A study of Rattus norvegicus with 30 samples.

Results

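The cytosolic ribosomal proteins were followed in cultured rat hepatocytes exposed to acetaminophen. The genes were taken by name: every gene whose symbol starts with Rpl or Rps and a digit, or with Rplp, apart from S6 kinases and pseudogene symbols. This gave 47 of the 14217 genes named on the array, 33 of the large subunit (its stalk included) and 14 of the small subunit. The rule used no measured value except to choose the brightest probe set of a gene. It left out 9 symbols of kinases and pseudogenes. RNA levels were measured on 30 single-colour rat 230 2.0 arrays, 1 for each culture well, in thawed primary hepatocytes of male Sprague Dawley rats. Wells carried 1% DMSO as vehicle, or acetaminophen at 500 µM or 5000 µM, from day 3 of culture, and RNA was taken after 24 or 48 h, with 5 wells in each of the 6 groups. All groups share the purchased frozen cells, a collagen plate with a Matrigel overlay, and the culture medium. Wells rather than animals are the replicates, and the number of animals behind the cells is not given in the sources used here, and p-values therefore cover variation among wells alone.

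A ribosome is built from ribosomal RNA and one copy of most ribosomal proteins. The small subunit reads the mRNA and the large subunit joins amino acids, while the stalk recruits the translation factors. The mRNAs of these proteins belong to the TOP class, which start with a C followed by a run of pyrimidines (C or T in the DNA). Their translation is controlled through mTORC1 and the RNA-binding protein LARP1, so that protein output can change while mRNA stays level. In liver, they are among the most abundant mRNAs. Arrays measure mRNA only, and in bulk RNA fewer cells of a type and less RNA per cell cannot be told apart.

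Start-site windows are printed for the members with the 5 largest called falls at each dose at 48 h and for the stalk protein Rplp0, because the start of the mRNA defines the TOP class. RefSeq (GRCr8) gave a start for 42 of the 47 genes; Rpl7, Rpl23a, Rpl27, Rpl30 and Rps29 had no entry. Each window holds 30 bases read 5′ to 3′, 15 before the annotated start and 15 from it on, and capitals mark the longest run of C or T.
Rplp0 (chr12:46718376-46718405, minus strand): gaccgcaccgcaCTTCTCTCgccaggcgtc
Rpl14 (chr8:129163605-129163634, plus strand): gggcgggCCCTCTCCCTTCTCgctgagcgc
Rpl35 (chr3:43165907-43165936, minus strand): cgCCCCTTCCTCTTTCTCTCgaaccgggcg
Rpl22 (chr5:168117946-168117975, plus strand): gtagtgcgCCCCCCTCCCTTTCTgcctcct
Rpl13a (chr1:104748899-104748928, minus strand): CCTCTTCCTTTCCTaggcggctgccgaaga
Rps3 (chr1:163195762-163195791, minus strand): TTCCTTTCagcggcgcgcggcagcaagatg
Rpl21 (chr12:13386139-13386168, minus strand): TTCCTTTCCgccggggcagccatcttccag
Rpl23 (chr10:83272170-83272199, minus strand): actaaCTTCCTTTCTgactctttccggacg
Rpl24 (chr11:58128391-58128420, minus strand): gaatttagggaggagaTTCTCTaccctata
Rps27l (chr8:76443643-76443672, plus strand): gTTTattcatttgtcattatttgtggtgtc
A run of at least 8 pyrimidines lay in 25 of the 42 windows (59.5%), compared with 11.4% of the 27457 windows of all genes in the same table. A C at the annotated start followed by at least 4 pyrimidines was present in 12 of 42 (28.6%), compared with 2.63% of all windows. Rplp0, Rpl14, Rpl35 and Rpl22 had such a start. In Rpl13a, Rps3, Rpl21 and Rpl23 the run lay wholly before the annotated start, and the paralog Rps27l held a run of only 3. In the 250 bases before the start, searched on both strands, GGGCGG was present in 59.5% of members and 32.4% of all promoters, and CCGGAAG in 16.7% and 7.74%. TATAAA was found in 14.3% and 13.1%, and CCAAT in 19% and 34.3%. These matches are descriptions of letters, and RefSeq starts of single genes can be off by some bases.

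The signal of an array probe set depends on its probes as well as on the RNA, so signals are compared between groups for one gene and not between genes. Of the 47 members, 37 had a mean log2 signal above 14, in a table whose highest single signal was 103734. How far signals of this brightness are compressed was not tested. The brightest were Rps29, a zinc-binding protein of the small-subunit head (geometric mean signal 69431), Rps23, which lies at the decoding centre (63792), and Rpl26, which sits near the peptide exit tunnel (62226). The range of single Rps29 signals over all 30 arrays was 61412 to 80475. Tests covered the brightest 60% of genes, 8531 in all, down to a geometric mean signal of 469. This kept 42 members, and the last kept was the paralog Rpl26l1 (498). The 5 left out were Rps13 (311), Rpl30 (247), Rpl28 (50.2), the paralog Rpl39l1 (35.2) and Rpl3l (26.4), the paralog of Rpl3 known from muscle. For Rpl28, Rpl30 and Rps13, which are standard parts of the ribosome, the only probe set naming a single gene was this dim one. Among tested members the median SD between wells of a group was 0.11 on the log2 scale, compared with 0.15 over all genes tested. It ran from 0.07 for Rps28 to 0.61 for Rpl39, a very short protein of the exit tunnel.

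**Figure D1:**
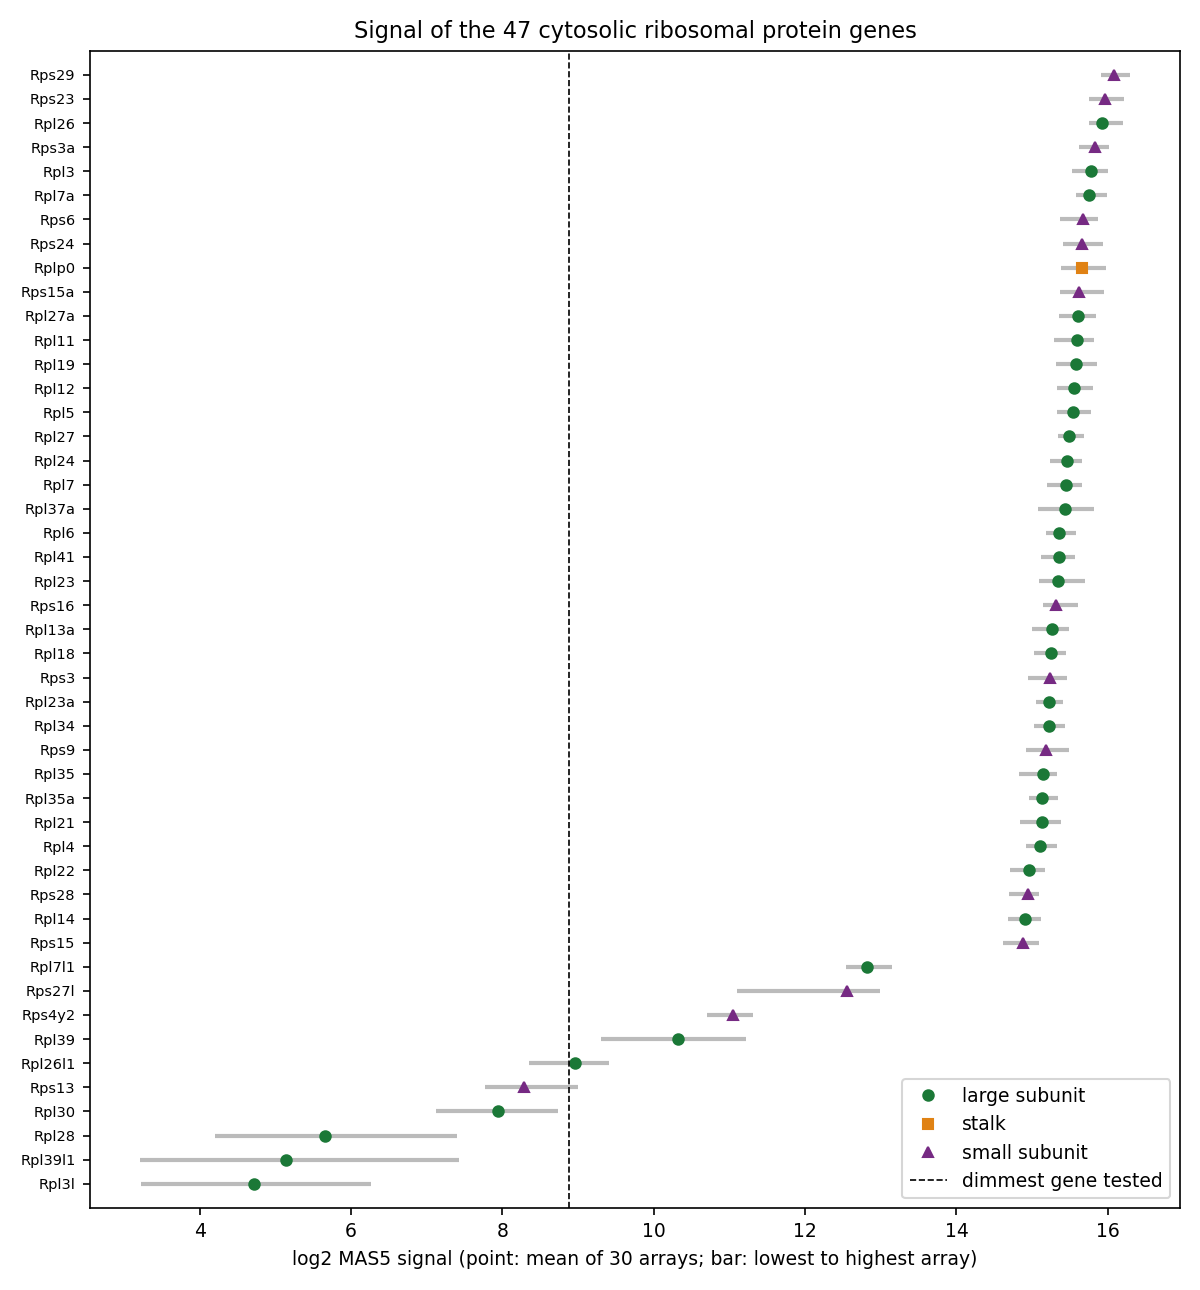
Mean log2 signal of each of the 47 cytosolic ribosomal protein genes over 30 arrays (points; shape and colour give the subunit), with grey bars from the lowest to the highest array and a dashed line at the dimmest gene tested. A block of 37 genes lies above a log2 signal of 14, and 5 lie left of the line.

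Members moved together from well to well inside a group. In vehicle at 24 h, 41 of the 42 tested members lay above their group mean in replicate 3, and 5 of 42 did so in each of replicates 1 and 4. In 500 µM at 48 h the count ran from 4 in replicate 4 to 39 in replicate 2. In 5000 µM at 48 h it was 3 in replicate 4 and 39 in replicate 2. In these 3 groups, single wells were high or low for most members at once. The share of all genes above their group mean in the same wells was not counted. Whether this is particular to the members was therefore not tested.

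An array's actin 3′/5′ ratio compares probe sets at both ends of the actin mRNA. It rises where labelled RNA is shorter, from degraded RNA or from a shorter labelling product. Its log2 value was 1.99, 1.96, 1.90, 1.54 and 1.49 in vehicle at 24 h, and 1.34, 1.31, 1.29, 1.18 and 1.09 in vehicle at 48 h. In 500 µM wells it was 2.02, 1.74, 1.75, 1.26 and 1.28 at 24 h, and 1.78, 1.81, 1.98, 2.00 and 1.74 at 48 h. In 5000 µM wells it was 1.76, 1.29, 1.31, 1.21 and 1.28 at 24 h, and 1.21, 1.23, 1.29, 1.19 and 1.15 at 48 h. The widest gap in these 30 values lay between 1.54 and 1.74. At 48 h all 5 arrays of 500 µM lay above it, and all vehicle and 5000 µM arrays lay below it. At 48 h the ratio was 0.62 higher in 500 µM than in vehicle (exact two-sided permutation test, p = 0.00794, the smallest that 5 against 5 can give; adjusted p = 0.0185). In 5000 µM at 48 h it differed from vehicle by -0.03 (exact permutation p = 0.579). In vehicle it fell by 0.53 from 24 to 48 h (exact permutation p = 0.00794, adjusted p = 0.0185).

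**Figure D2:**
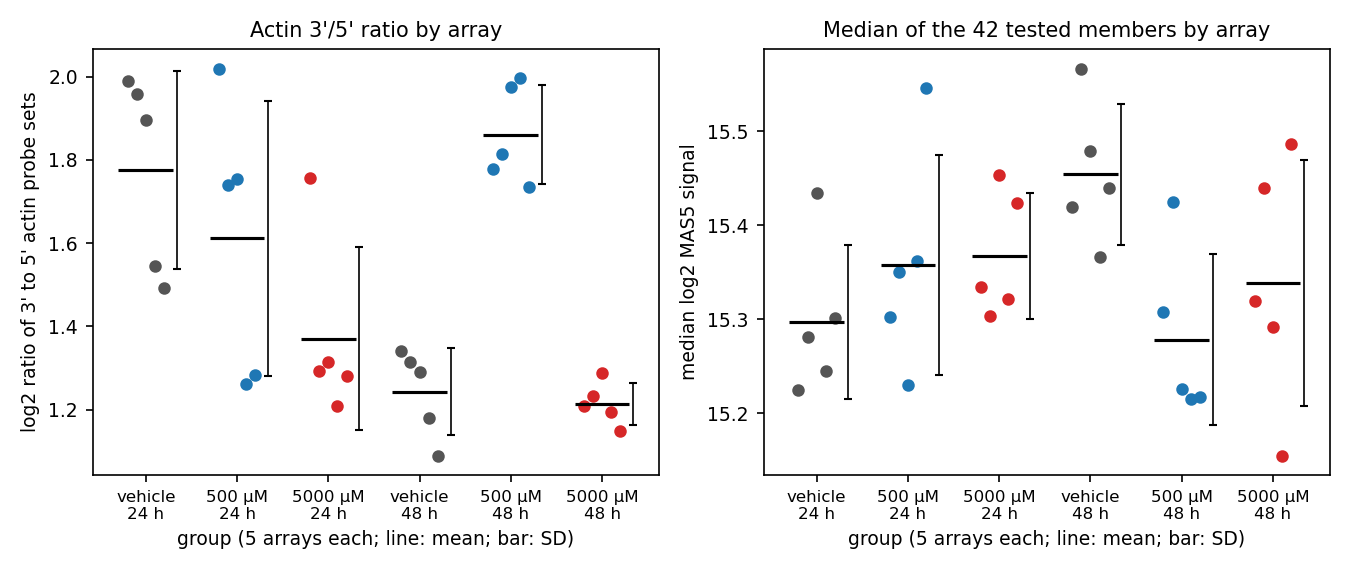
Left, the log2 actin 3′/5′ ratio of each array; right, the median log2 signal of the 42 tested members in the same arrays, by group (points are arrays, lines group means, bars SD, n = 5). At 48 h the 500 µM arrays have ratios from 1.74 to 2.00 and vehicle arrays from 1.09 to 1.34, and the member medians of these groups overlap only through 1 array of 500 µM.

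At 24 h the ribosomal protein mRNAs did not pass the test at either dose. With limma and Benjamini-Hochberg adjustment over all 8531 genes, 0 of 42 members were called at 500 µM, where 1.65% of all genes were called higher and 1.21% lower. At an unadjusted p under 0.05 the count was also 0, compared with 7.06% of all genes higher and 11.5% lower. The median change was 0.06 on the log2 scale, with 39 of 42 members above 0, compared with a median of -0.02 over all genes tested. Between the arrays below the actin gap (2 against 2) the member median was 0.15, and between those above it (3 against 3) it was -0.02. At 5000 µM and 24 h, 0 of 42 were called, where 18.6% of all genes were called higher and 19.6% lower. At an unadjusted p under 0.05, 3 members were higher (Rps3, Rps15 and Rpl35a) and 0 lower, compared with 22.5% and 23.7% of all genes. The median change was 0.04, with 30 of 42 above 0. The actin ratio was 0.41 lower at 5000 µM (exact permutation p = 0.0476, adjusted p = 0.0833), and with it as covariate the median was -0.00, with 25 of 42 below 0. Between the arrays below the actin gap (4 against 2) the member median was 0.07, with 35 of 42 above 0. Quantile normalization called 8 of 42 members higher, where it called 1662 of all 8531 genes higher. On the values as deposited, 4 were called without vehicle replicate 3, and the matching count over all genes is not given here. The stalk protein Rplp0 had 42843, 51390, 57671, 47345 and 50422 in vehicle wells and 50537, 54059, 50088, 46149 and 57248 in 5000 µM wells. These sets overlap almost fully, and the log2 change was 0.05 ± 0.08 (SE, n = 5 a group).

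After 48 h at 500 µM some members were lower by a small amount. Of 42 members, 16 were called lower and 0 higher, compared with 18.6% and 24% of all genes. All 42 changes were below 0, with a median of -0.15, while the median of all genes was 0.01 and 4434 of 8531 lay above 0. The 16 included 12 of 29 large-subunit and 4 of 13 small-subunit members. In 8 members every 500 µM well lay below every vehicle well, which 11.3% of all genes showed. Under quantile normalization 12 members were called lower, compared with 20% of all genes. There 37 of 42 changes were below 0, with a median of -0.06.

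Rps3, which lies at the mRNA entry of the small subunit, had 45132, 42126, 44815, 39807 and 43115 in vehicle wells and 36872, 36960, 31620, 31711 and 33889 in 500 µM wells at 48 h. The groups did not overlap, and the log2 change was -0.33 ± 0.06 (SE; limma adjusted p = 0.000132). Rpl14, a large-subunit surface protein, had 33717, 32643, 34867, 32884 and 35417 in vehicle and 29930, 29043, 26357, 27503 and 27798 at 500 µM. These groups also stood apart (-0.27 ± 0.05, limma adjusted p = 0.000155). Rpl23, which is also known to bind the p53 regulator Mdm2, fell by 0.27 on the log2 scale with no overlap. Its signals were 43757, 49010, 46089, 42820 and 45865 in vehicle and 40128, 39744, 34778, 37424 and 37280 at 500 µM. Rpl24, which forms a bridge to the small subunit, fell by 0.24, from 48601 ± 1950 to 41204 ± 1982 (SD, n = 5). Rpl18, Rpl13a, Rpl12 and Rpl23a completed the 8 without overlap, at -0.21, -0.21, -0.19 and -0.13.

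The largest called fall was that of Rps27l, a paralog of Rps27 known as a p53 target, and it rested on 1 well. The 500 µM wells had 7198, 6326, 2197, 6302 and 5519, and the vehicle wells 7088, 7115, 8171, 6967 and 7437. The groups overlapped, and replicate 3 stood far below the rest. The log2 change was -0.52 ± 0.18 (limma adjusted p = 0.0172), and -0.22 without that well, where the call was lost. Rps6, the substrate of the S6 kinases, fell by 0.18, from 55525 ± 2903 to 49289 ± 5057. Rpl11 and Rpl5 form the 5S particle that can bind Mdm2. Rpl11 fell by 0.16 at the edge of the threshold (limma adjusted p = 0.0498), and Rpl5 did not pass it (-0.14 ± 0.07, adjusted p = 0.102). Nor did Rplp0 (-0.15 ± 0.08, adjusted p = 0.128). The remaining called members were Rpl21, Rpl34, Rpl35a, Rps3a and Rpl27, with changes from -0.21 to -0.15. Members outside the naming rule, such as these, were named after their values were seen.

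**Figure D3:**
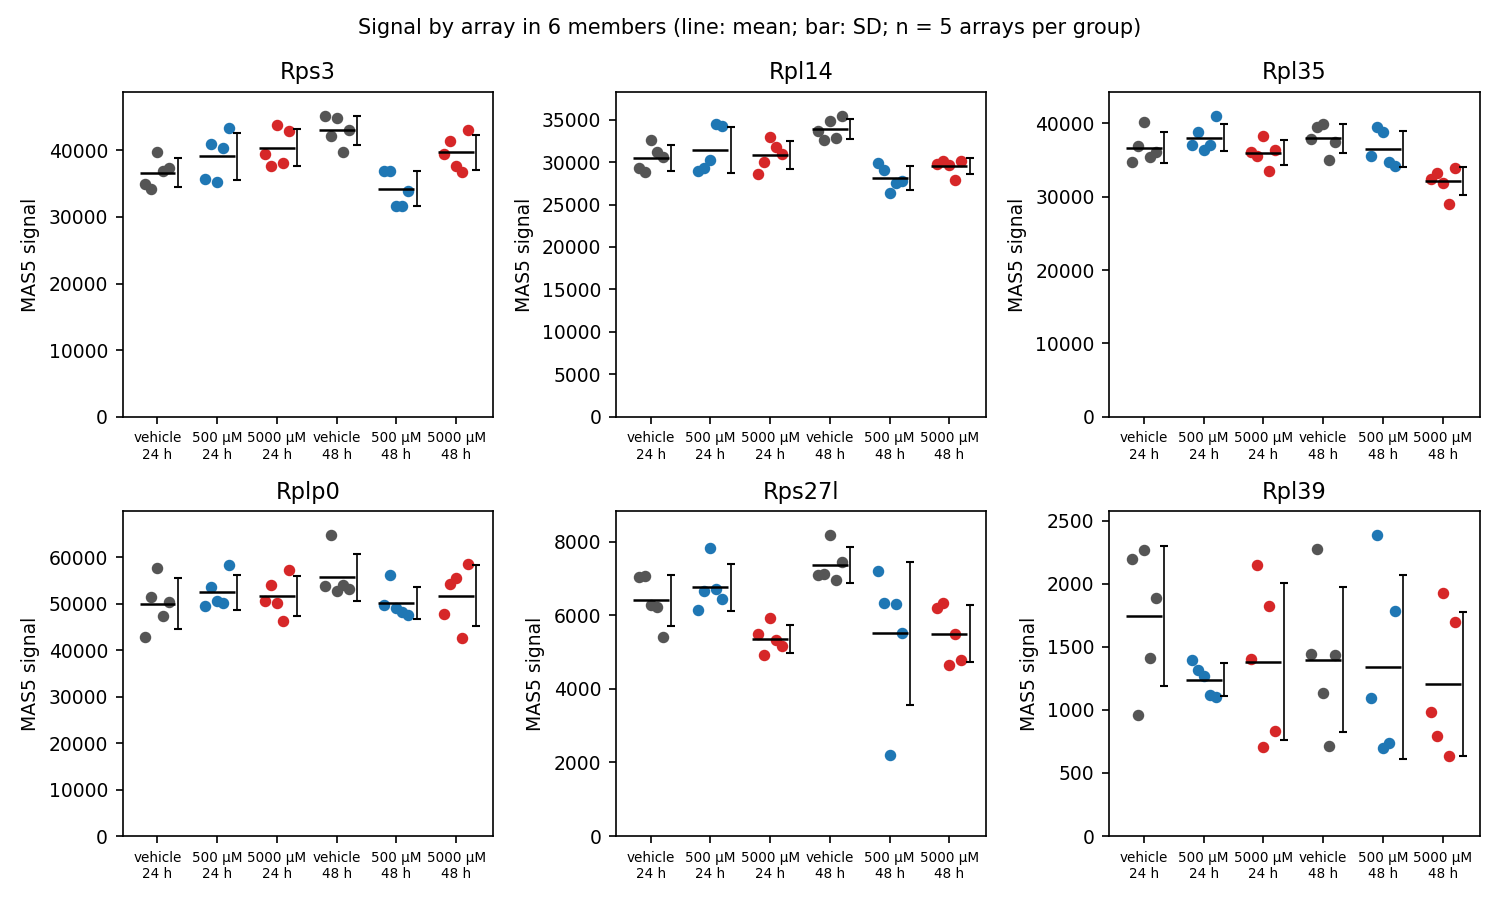
MAS5 signal by array in 6 members, with 5 arrays in each group (points), group means (lines) and SD (bars); each panel starts at 0 with its own scale. Rps3 and Rpl14 at 500 µM and 48 h lie below all vehicle wells of that time, Rpl35 does so at 5000 µM, and 1 well sets Rps27l apart at 500 µM.

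Of the 4 comparisons with vehicle, that of 500 µM at 48 h had the largest difference in the actin ratio. With that ratio as a covariate, 0 of 42 members were called at 500 µM and 48 h, and 1.49% of all genes were called lower and 2.49% higher. Rps3 was then at -0.20 (limma adjusted p = 0.177). The member median became -0.09, with 41 of 42 still below 0, and the change of Rps27l stayed at -0.51. Since the ratio separates these groups completely, dose and ratio cannot be told apart in this comparison. Within groups, the slope of a member on the ratio was negative in 35 of 42, compared with 44.4% of all genes. The median was -0.08 log2 per unit in members and 0.04 over all genes. Of the member slopes 2 were called negative and 0 positive, compared with 6.82% and 11.1% of all genes. Rpl7l1, a nucleolar factor of large-subunit assembly, had a slope of -0.49 ± 0.10 (limma adjusted p = 0.00132), and Rpl14 one of -0.27 ± 0.07 (adjusted p = 0.00655). The next most negative was Rpl23 (-0.22), and the most positive were Rps15a (0.09), Rpl22 (0.07) and Rpl39 (0.04), of which none passed the test. A slope for the second probe set of Rpl7l1, which rose by 0.39 at 500 µM and 48 h, is not given here. The summed signal of the cholangiocyte markers (6 of 7 on the array, 1 bright enough to test) was 13319 to 14661 in vehicle and 11073 to 11616 in 500 µM wells at 48 h. Nearly all of it was Epcam (means of 13446 and 10896), while the defining keratins were dim, with means of 226 and 131 for Krt19 and 21.1 and 9.25 for Krt7. The part of these markers in the result was not tested. The summed signal of the 10 hepatocyte markers overlapped between all 6 groups, from 454512 to 620101 over the 30 arrays.

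**Figure D4:**
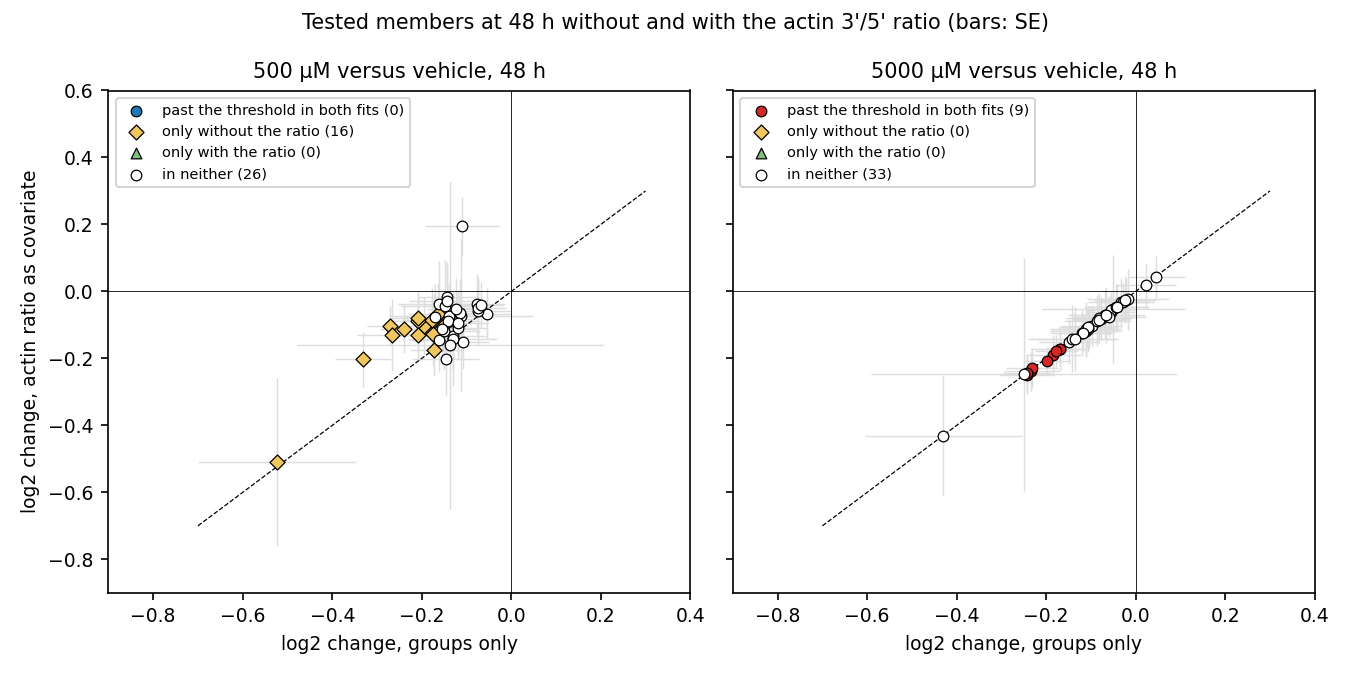
Log2 change of each of the 42 tested members against vehicle at 48 h, from the fit with groups only (x axis) and with the actin 3′/5′ ratio as covariate (y axis); bars are SE and the dashed line marks equal values. At 500 µM all 16 calls are lost and the median moves from -0.15 to -0.09, and at 5000 µM the 9 calls are kept with a median of -0.11 in both fits. The ratio differs from vehicle by 0.62 at 500 µM and by -0.03 at 5000 µM, so the covariate can shift changes little at 5000 µM.

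After 48 h at 5000 µM fewer members were called lower than at 500 µM on the values as deposited. The order was reversed under quantile normalization, where 12 were lower at 500 µM and 20 at 5000 µM. The actin ratios of the 5000 µM arrays overlapped those of vehicle. Of 42 members, 9 were called lower and 0 higher, compared with 18% and 14.6% of all genes, and under quantile normalization 20 were lower, compared with 18.6% of all genes. Changes were below 0 in 40 of 42, with a median of -0.11, and the median over all genes was -0.01. The 9 were 8 large-subunit members and Rps28. With the actin ratio as a covariate the same 9 were called, where 19.1% of all genes were called lower and 16.4% higher, and the median was again -0.11. Since the ratio differed by only -0.03 between these groups, the covariate could shift these changes little. In 6 members every 5000 µM well lay below every vehicle well, which 13.6% of all genes showed.

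Rpl35, which lines the peptide exit of the large subunit, had 32473, 33202, 31887, 28936 and 33859 in 5000 µM wells and 37891, 39492, 39918, 34998 and 37386 in vehicle. The groups stood apart, with a log2 change of -0.24 ± 0.05 (limma adjusted p = 0.000608). Rpl22, an RNA-binding protein of the large subunit, had 29548, 30626, 28900, 26769 and 31262 at 5000 µM and 33302, 36961, 35277, 32555 and 34482 in vehicle. It fell by 0.23 (adjusted p = 0.00226) with no overlap. Rpl13a, also known from the GAIT complex that represses translation in inflammation, fell by 0.23, from 43091 ± 2225 to 36700 ± 2569 (adjusted p = 0.00367). Rpl21 fell by 0.24 (adjusted p = 0.00218), and its groups overlapped. Its 5000 µM wells had 36535, 33603, 33524, 32044 and 29319, and its vehicle wells 40136, 36407, 40735, 37849 and 39963. Rpl14 fell by 0.20 (adjusted p = 0.00332) and Rps28, which lies at the mRNA exit, by 0.18 (adjusted p = 0.0048), both without overlap. The remaining 3 were Rpl12 at the base of the stalk (-0.18), Rpl27a (-0.17) and Rpl23a (-0.17), which overlapped. Rps27l lay below every vehicle well without passing the test (-0.43 ± 0.18, adjusted p = 0.0595). Only Rps15 (0.05) and Rpl11 (0.02) lay above 0 in this comparison, and Rplp0 was at -0.11 ± 0.08. The summed signal of the Kupffer cell and leukocyte markers (11 of 12 on the array, 3 bright enough to test) was 21576 to 23834 in 5000 µM wells and 25282 to 29129 in vehicle at 48 h. Most of it was Cd14 and Lyz2, while the defining Clec4f was dim (means of 288 and 338) and Cd163 dimmer still (59.6 and 79.1). The cholangiocyte sum was 12019 to 13165 in 5000 µM wells, also below vehicle, and Epcam fell by 0.14. The sum of the stellate cell and fibroblast markers (11 of 11 on the array, 2 bright enough to test) overlapped, at 3094 to 3606 and 3408 to 3920, and of these Acta2 fell, from 1064 to 767. The Kupffer cell and leukocyte sum was also lower without overlap at 24 h, where 0 of 42 members were called at 5000 µM. It was then 20828 to 23670 in 5000 µM wells and 24010 to 31780 in vehicle, with Cd14 means of 12621 and 18457. The part of these markers in the result was not tested.

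**Figure D5:**
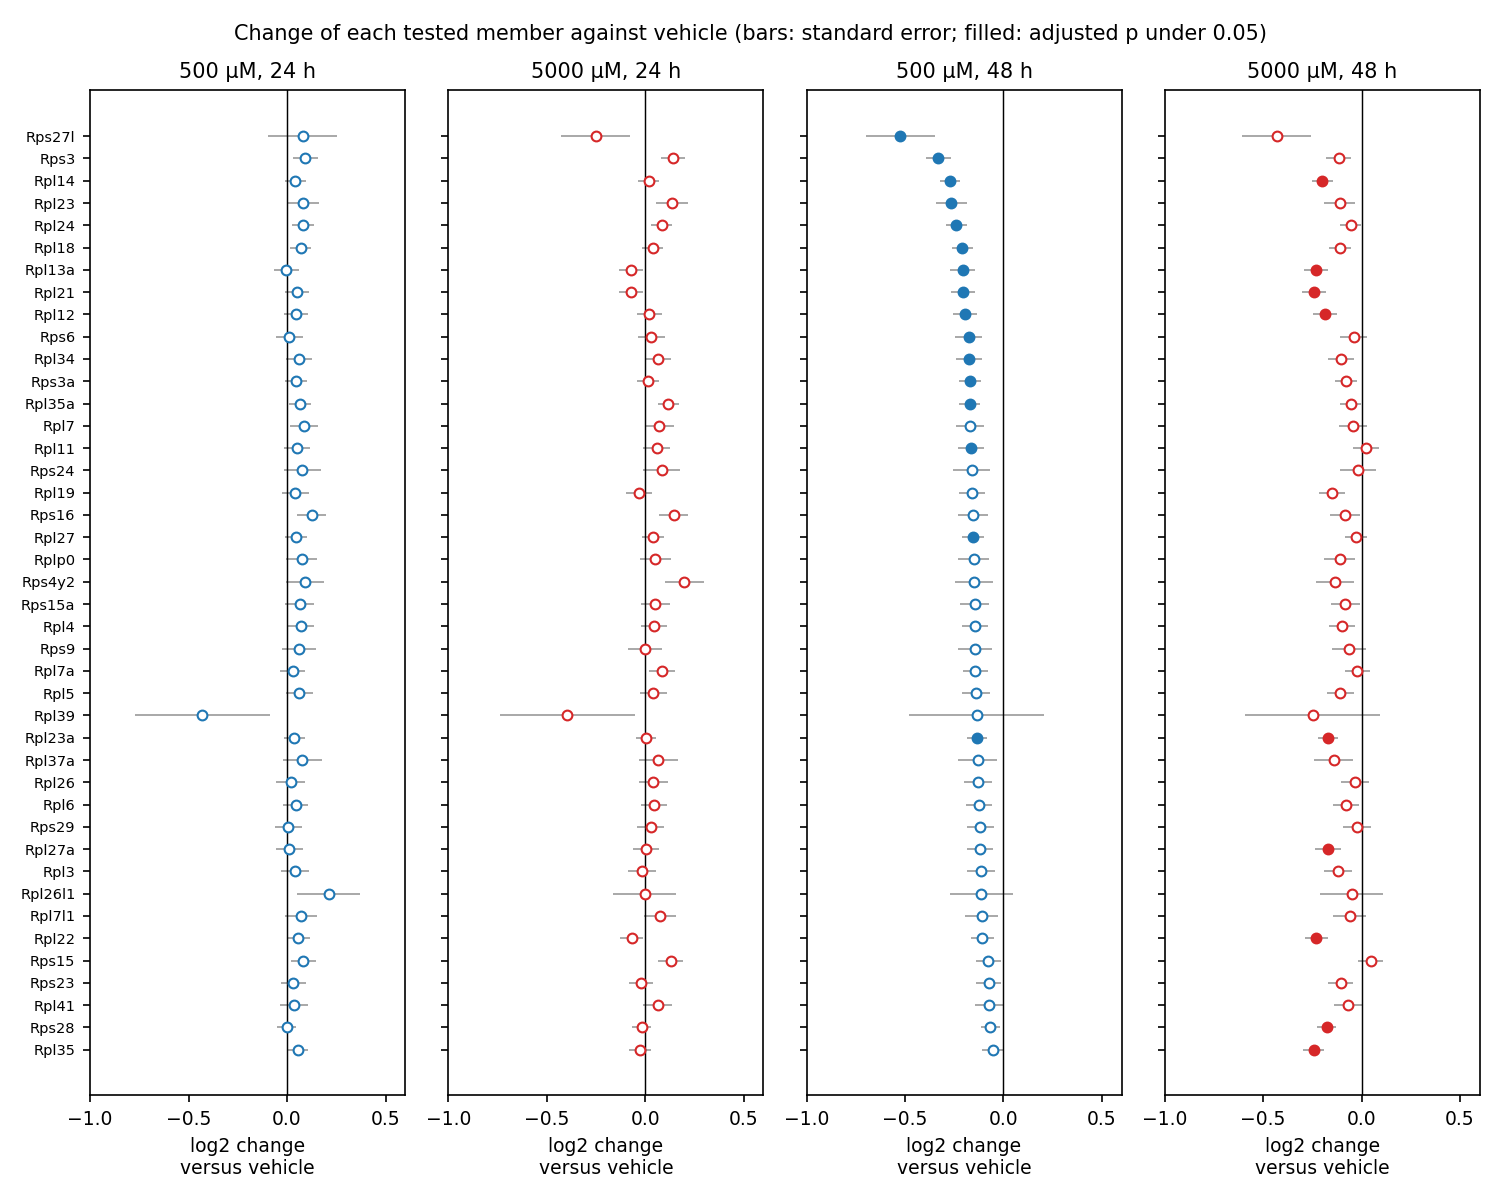
Log2 change against vehicle of each of the 42 tested members in the 4 comparisons of a dose with vehicle (bars: SE; filled points: adjusted p under 0.05), ordered by the change at 500 µM and 48 h. No point is filled at 24 h, 16 are at 500 µM and 48 h and 9 at 5000 µM and 48 h, all below 0.

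The 2 doses at 48 h were compared with the same vehicle wells. Of the 16 lower at 500 µM, 5 were also lower at 5000 µM (31.2% of the 16 and 55.6% of the 9): Rpl14, Rpl21, Rpl13a, Rpl12 and Rpl23a. The matching overlap over all genes was not counted, and whether 5 is more than unrelated lists would share was not tested. Set against each other at 48 h, 5000 µM was higher than 500 µM in 3 of 42 members and lower in 1, compared with 19.4% and 28.2% of all genes. The higher ones were Rps3 (0.21 ± 0.06), Rpl11 (0.19 ± 0.07) and Rpl24 (0.18 ± 0.06), and the lower one was Rpl35 (-0.19 ± 0.05, limma adjusted p = 0.00473). Rpl35 signals at 500 µM were 35562, 39520, 38816, 34689 and 34121, above every 5000 µM well, as 20% of all genes showed, and Rpl24 was separate the other way, as 12.9% did. The median difference was 0.06, and -0.03 under quantile normalization, so the family as a whole has no settled order between the doses. With the actin ratio as covariate Rpl35 was at -0.18 (adjusted p = 0.112) and the only call was Rpl7l1, where 12% of all genes were called lower and 8.87% higher. This fit holds only the brightest of the 2 probe sets of Rpl7l1. At 24 h, 0 members differed between the doses, compared with 16.8% of all genes higher and 14.3% lower, and at an unadjusted p under 0.05 the count was 1. In that comparison every Rps27l well of 5000 µM lay below those of 500 µM, as 9.18% of all genes showed: 5483, 4925, 5928, 5330 and 5155 at 5000 µM against 6145, 6659, 7824, 6713 and 6450 at 500 µM (-0.33 ± 0.18, limma adjusted p = 0.162). The member median at 24 h was -0.01 over all arrays. Between the arrays below the actin gap (4 against 2) it was -0.08, with 39 of 42 below 0.

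Vehicle wells moved the other way over time. From 24 to 48 h, 5 of 42 members were called higher and 0 lower, compared with 13.4% and 19% of all genes. Changes were above 0 in 41 of 42, with a median of 0.14 (0.06 under quantile normalization), and the median of all genes was -0.01. The 5 were Rps3 (0.23 ± 0.06, limma adjusted p = 0.00541), Rpl23 (0.22), Rpl18 (0.18), Rpl24 (0.16) and Rpl14 (0.15). Rps3 vehicle wells had 34874, 34240, 39741, 36855 and 37361 at 24 h, and all lay below the 48 h wells, the highest of them by a narrow margin. All 5 were also among the 16 called lower at 500 µM and 48 h, a comparison that uses the same 48 h wells. The lowest change was that of Rpl39 (-0.35 ± 0.34), which did not pass the test. The count was 23 without vehicle replicate 3 of 24 h and 1 without replicate 1, and the matching counts over all genes are not given here. With the actin ratio as covariate it was 0 (median 0.07), where 2.34% of all genes were called higher and 2.81% lower. Between the arrays below the actin gap (5 at 48 h against 2 at 24 h) the member median was 0.17. There 40 of 42 changes were above 0, and the median of all genes was 0.002. In Rps3, Rpl18 and Rpl14 every 48 h well lay above every 24 h well, which 9.31% of all genes showed. The cholangiocyte sum rose without overlap in the same comparison, from 9437 to 9755 at 24 h to 13319 to 14661 at 48 h, and Epcam rose by 0.56 and was 0.40 higher with the covariate. The part of these markers in the result was not tested.

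The dose effects at 48 and 24 h were compared directly. For 500 µM, 13 of 42 members had a lower effect at 48 h and 0 a higher one, compared with 14.5% and 22.1% of all genes. The largest called was Rps3, whose change was 0.09 at 24 h and -0.33 at 48 h, a difference of -0.42 ± 0.09 (limma adjusted p = 0.000629). For Rps27l the difference was -0.60 ± 0.25 (adjusted p = 0.0556), and for Rpl39 it was 0.29 ± 0.48. For 5000 µM, 3 of 42 had a lower effect at 48 h (Rps3 -0.26, Rpl14 -0.22 and Rpl35 -0.22) and 0 a higher one, compared with 8.66% and 7.74% of all genes. The lowest difference there was that of Rps4y2 (-0.33 ± 0.14, adjusted p = 0.0937) and the highest that of Rpl39 (0.15 ± 0.48), and neither passed the test. With the actin ratio as covariate, 0 members were called in either difference, where 0.0117% of all genes were called lower and 0.0234% higher for 500 µM, and 5.08% and 4.55% for 5000 µM. The vehicle wells of both times enter both differences.

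The start-site class can be set against these values for the 38 tested members with a RefSeq start. At 500 µM and 48 h, 7 of 23 members with a pyrimidine run of at least 8 were lower, and 7 of 15 with a shorter run. The median change was -0.15 in both classes. At 5000 µM and 48 h the counts were 7 of 23 and 1 of 15, with medians of -0.11 and -0.08. The difference between the classes was not tested. Of the printed windows, Rpl14, Rpl35 and Rpl22 carry long runs that reach the annotated start, and Rpl24 a run of 6 that lies after it.

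Paralogs and second probe sets did not always follow the chosen probe set. Rpl7l1 changed by -0.11 ± 0.08 at 500 µM and 48 h in its brightest probe set (adjusted p = 0.29), while its second rose by 0.39 (limma over probe sets, adjusted p = 0.000556). Its direction is therefore not settled. The second probe set of Rpl7 gave -0.76 in that comparison (adjusted p = 0.0878), against -0.17 in the chosen one. A dim second probe set of Rpl14 gave 0.35 at 5000 µM and 48 h (adjusted p = 0.68). Rps4y2, a paralog of Rps4, had 1996 ± 288 in vehicle and 2276 ± 148 in 5000 µM wells at 24 h, and its change of 0.20 ± 0.10 did not pass the test (adjusted p = 0.108). Rpl26l1 lay between 325 and 677 on all arrays, and its changes from vehicle ran from -0.11 to 0.21. The stalk protein Rplp1, the paralog Rpl22l1, the small-subunit protein Rps4x and Fau were present only on probe sets that name several genes. Of Rps4x and its paralog Rps4y2, only Rps4y2 is therefore a member. Rplp2 and Rps27a had no match in the annotation used.

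There were 36 probe sets that name several genes, a ribosomal protein among them, and they were fitted without naming a gene. At 500 µM and 48 h, 16 of 36 were lower and 0 higher, compared with 14.1% and 15.7% of all 18626 probe sets tested, and all 36 lay below 0 (median -0.17). At 5000 µM and 48 h 5 were lower and 0 higher, compared with 10.6% and 10.3%, with a median of -0.09. At 24 h 0 were called at either dose, compared with 0.87% higher and 0.569% lower at 500 µM, and 14.8% and 13.1% at 5000 µM.

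The symbol rule does not reach some ribosomal components. Rpsa, the small-subunit protein once named the laminin receptor, had 41774 ± 2031 in vehicle, 36456 ± 2758 at 500 µM and 41794 ± 2463 at 5000 µM after 48 h. It fell by 0.20 at 500 µM (limma adjusted p = 0.0135) and was at -0.03 with the actin ratio as covariate. Rack1, a scaffold on the small subunit, was at -0.13 ± 0.06 (adjusted p = 0.0712) at 500 µM. For the lists that follow, the shares of all genes at 500 µM and 48 h were 18.6% lower and 24% higher, and 1.49% and 2.49% with the covariate. Of 73 mitochondrial ribosomal proteins, which serve the separate ribosome of mitochondria, 39 were lower and 4 higher at 500 µM and 48 h (median -0.20), and 0 with the covariate. Of 46 proteasome subunits, 26 were lower and 4 higher there (median -0.18), and 0 with the covariate. At 5000 µM and 24 h, where no cytosolic member was called, 22 mitochondrial ribosomal proteins were higher and 10 lower, compared with 18.6% and 19.6% of all genes.

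Among genes that assemble ribosomes, more were called lower than higher at 5000 µM at both times. Of all genes, 19.6% were lower and 18.6% higher at 24 h, and 18% and 14.6% at 48 h. Of 24 tested factors of large-subunit assembly, 9 were lower and 2 higher at 24 h (median -0.12), and 13 were lower and 1 higher at 48 h (median -0.28). Rrs1, which helps bring the 5S particle into the pre-ribosome, had 4139 ± 311 in vehicle and 2838 ± 319 at 5000 µM at 24 h, and 3988 ± 186 and 2388 ± 500 at 48 h (log2 changes -0.55 and -0.76). Of 24 tested factors of small-subunit assembly, 8 were lower and 3 higher at 24 h, and 9 lower and 1 higher at 48 h (median -0.20). Ltv1, which is needed for late small-subunit maturation, fell by 0.47 at 24 h and 0.78 at 48 h, while Imp3 of the early small-subunit particle rose by 0.59 and 0.28. With the actin ratio as covariate the counts of lower factors were 10 and 7 at 24 h, and 14 and 10 at 48 h. Of all genes, 14.7% were then lower at 24 h and 19.1% at 48 h. Of 13 other genes listed for a TOP mRNA, not all of them translation genes, 6 were higher at 5000 µM and 24 h. They were led by the snoRNA host Gas5 (0.39), Eef1d and Eef1g. With the covariate 1 was higher, where 1352 of all 8531 genes were. The median of the list was 0.10 without the covariate and 0.11 with it. At 48 h 6 of the 13 were lower, a count of 6 also with the covariate, led by Hnrnpa1 (-0.31) and Naca (-0.23). The difference between these lists and the ribosomal proteins was not tested.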

How the data were processed

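Per the submitters' processing notes, the authors made the deposited values with MAS5, as 1 linear signal intensity per probe set. Its version and target were not stated there. Arrays had nearly equal 2% trimmed means (1500.55 to 1500.66) and were used as deposited after a log2 transformation. Of 31099 probe sets, 57 were controls, 20826 had 1 symbol in the platform annotation, 436 several and 9780 none listed. Symbols were updated through Entrez identifiers to RefSeq, which matched 20758 probe sets; Rpl37a and Rps9 kept the annotation's symbol. The brightest probe set stood for a gene, and the brightest 60% of genes were tested. The fit, in limma 3.58.1 under R 4.3.3, had one mean per group and used all 30 arrays (eBayes with intensity trend; 24 residual and 7.58 prior degrees of freedom). Adjusted p-values are Benjamini-Hochberg over all genes tested, with a threshold of 0.05, in 9 comparisons. Changes are differences of mean log2 signals. Ratios of 3′ to 5′ probe sets were compared by exact permutation. The fit was tested on simulated data.

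Groups came from the sample titles. They number the wells serially, in 5 consecutive sets of 1 well per group, without stating what a set is, so replicates 1 to 5 name wells and the fit does not pair them. The members and gene lists were chosen with earlier results of these data known. Named members were those with the 5 largest called rises and falls in each comparison of a dose with vehicle, the stalk, Rpl5, Rpl11, Rps6, paralogs, and the extremes of level, time and slope. Alternatives were other array scaling, the mean of probe sets, no filter, actin or GAPDH ratio as covariate, the gap in the actin ratio as a block, no intensity trend, only the groups compared, and each array left out. The fit over probe sets and that with the serial set as a block were added after the data were seen. With 5 arrays a group, their number limits the precision.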

Additional observations from a re-analysis of the deposited data

Results flagged for a closer look

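Among 270 sets of 5 values (each of 42 tested members, and 3 summaries of the arrays, in 6 groups), 20 had a highest or lowest value far from the other 4. Chance gives about 1 in 20 such sets. Most fell on a few arrays that were high for many members. Replicate 3 of vehicle at 24 h held 5: Rpl26 (70894), Rpl37a (49804), Rpl7a (60758), Rps16 (42087) and Rps29 (78016). Replicate 2 of 500 µM at 48 h also held 5: Rpl19 (55444), Rpl27 (48265), Rpl4 (37509), Rplp0 (56129) and Rps16 (45024). Replicate 5 of 500 µM at 24 h held 3: Rpl23 (48319), Rpl23a (43573) and Rps6 (57719). Replicate 2 of vehicle at 48 h held 3: Rpl5 (56093), Rplp0 (64665) and Rps15a (63165). The values that stood alone were Rps27l in replicate 3 of 500 µM at 48 h (2197, the lowest), Rpl14 in replicate 4 of 5000 µM at 48 h (27914, the lowest) and Rpl7l1 in replicate 5 of 500 µM at 48 h (8054, the highest). The actin ratio of replicate 1 of 5000 µM at 24 h (1.76) was the only one of that group above the gap.

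The effect of 500 µM differed between 48 and 24 h in 13 members by the test of the difference itself. The differences were -0.24 for Rpl12, -0.31 for Rpl14, -0.28 for Rpl18, -0.26 for Rpl21, -0.35 for Rpl23, -0.32 for Rpl24, -0.20 for Rpl27, -0.23 for Rpl34, -0.24 for Rpl35a, -0.26 for Rpl7, -0.28 for Rps16, -0.42 for Rps3 and -0.22 for Rps3a. The effect of 5000 µM differed in Rpl14 (-0.22), Rpl35 (-0.22) and Rps3 (-0.26). None of these 16 differences passed the test with the actin ratio as covariate.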

How the results depend on the processing

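The serial numbers of the titles form 5 sets of 6 wells. Deviations from the group means correlated at a median of 0.06 within a set (-0.32 to 0.43, with 31 of 75 pairs above 0.1). Between sets the median was -0.02, and 19 of 30 wells were closest on average to their own set. Wells of a set were therefore somewhat more alike than wells of different sets. What a set shares is not stated, and the main fit does not use the sets. With the set as a replicate block, chosen after the data were seen, vehicle over time had 12 members higher (5), compared with 1268 of 8531 genes. For 5000 against 500 µM at 24 h, 1 was lower (0), compared with 15.2% of all genes. At 500 µM and 48 h 19 were lower (16), compared with 19.7% of all genes. The other 6 counts stayed within 1.5 times. Counts are of members called; the cause of each shift was not tested. At 500 µM against vehicle at 48 h (16 lower), centring arrays on their median gave 28 lower, compared with 26.1% of all genes. There 0 were called with the actin covariate, the GAPDH covariate or the gap block. For vehicle over time (5 higher) these settings, in that order, gave 17 higher, 0, 0 and 0, and centring called 1695 of 8531 genes higher. For the 500 µM difference between times (13 lower) they gave 28, 0, 0 and 1, quantile normalization gave 8 and no filter 7. Of all genes, 24.1% were lower with centring and 15.9% with quantile normalization. For the 5000 µM difference (3 lower), quantile normalization gave 22, compared with 10% of all genes. The count was 0 with centring, the mean of probe sets, no filter, no intensity trend, either covariate or the block. At 5000 µM against vehicle, quantile normalization gave 20 lower at 48 h (9 lower) and 8 higher at 24 h (0), where no filter and the fit of only the groups compared each gave 1 lower. Of all 8531 genes, quantile normalization called 18.6% lower at 48 h and 1662 genes higher at 24 h. For 5000 against 500 µM at 48 h (3 higher, 1 lower), centring gave 15 higher, compared with 2466 of 8531 genes. Quantile normalization gave 12 called, 4 higher and 8 lower, compared with 1762 and 2231 genes. The actin covariate gave 1, and GAPDH and the block 0. For the same doses at 24 h (0) quantile normalization gave 4 higher, compared with 1434 genes, and no filter, the actin covariate, the block and only the groups compared gave 1 each. The mean of probe sets turned Rpl14 at 5000 µM and 48 h from -0.20 to 0.0772 (adjusted p = 0.851).

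Leaving out 1 array gave 10 (without vehicle replicate 2) to 25 (without 500 µM replicate 2) at 500 µM and 48 h, 7 to 11 at 5000 µM and 48 h, 0 to 4 at 5000 µM and 24 h, and 0 to 0 at 500 µM and 24 h. It gave 0 to 0 and 3 to 10 for 5000 against 500 µM at 24 and 48 h, the 10 without 5000 µM replicate 4. Vehicle over time ranged from 1 to 23, the 500 µM difference from 7 to 24 (without vehicle replicates 2 and 3 of 24 h) and the 5000 µM difference from 0 to 5. The matching counts over all genes are not given here, so these ranges cannot be read as particular to the members. Centring moved the median of all genes from 0.04 to -0.09 in the 500 µM difference and from -0.04 to 0.06 for 5000 against 500 µM at 48 h. It turned the split of all genes at 500 µM and 48 h from 2044 higher and 1588 lower to 1488 and 2224. It moved the splits of higher and lower from 1145 and 1625 to 1695 and 1215 in vehicle over time, from 1657 and 2407 to 2466 and 1624 for 5000 against 500 µM at 48 h, from 1886 and 1240 to 1292 and 2054 in the 500 µM difference, and from 141 and 103 to 185 and 58 at 500 µM and 24 h. The order of the split also turned at 5000 µM, from 1583 and 1669 to 1752 and 1495 at 24 h and from 1243 and 1536 to 1439 and 1284 at 48 h, and for 5000 against 500 µM at 24 h, from 1437 and 1222 to 1290 and 1310.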

Other observations

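Of 20 tested genes of mTORC1, the S6 kinases and TOP regulation, 6 were higher and 4 lower at 5000 µM and 24 h, compared with 18.6% and 19.6% of all genes. Rps6kb1, an S6 kinase, rose by 0.80 on the log2 scale, from 1050 ± 196 to 1825 ± 341 (SD, n = 5; limma adjusted p = 0.000363), and was at 0.30 with the actin ratio as covariate (adjusted p = 0.0668). Rps6ka3, one of the RSK kinases that also act on Rps6, rose by 0.65. Sesn3, a sestrin that restrains mTORC1, rose by 0.78. At 500 µM and 48 h Rps6kb1 fell by 0.68 and Tsc2, an inhibitor of mTORC1, rose by 0.61, and 0 genes of the list were called with the actin ratio as covariate. At 5000 µM and 48 h Sesn3 was 0.44 higher and Rragc, a GTPase that brings mTORC1 to the lysosome, 0.37 lower.

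Eif4ebp1, which holds back the cap-binding factor Eif4e until mTORC1 phosphorylates it, had 16487 ± 1072 in vehicle and 10239 ± 609 at 5000 µM after 48 h (log2 change -0.69 ± 0.06, limma adjusted p = 1.9e-10). Of 34 tested initiation factors, 11 were lower and 2 higher in that comparison, where 18% of all genes were lower and 14.6% higher. Of 10 tested genes listed for elongation and termination, 4 were lower and 0 higher. They were led by Eef1e1 (-0.53), an elongation factor by symbol only, and the recycling factor Abce1 (-0.22).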
